A study of Mus musculus with 8 samples.

Results

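Chromosomal DNA is copied at forks that are assembled in a fixed order. In G1 the origin recognition complex, CDC6 and CDT1 load the MCM2-7 helicase onto origins, a step called licensing. At the start of S phase, CDC45 and the GINS complex join MCM2-7 to form the active CMG helicase, after which primase, the replicative polymerases, the PCNA clamp with its loaders, and the single-strand binding protein RPA carry out synthesis. FEN1 and DNA ligase I finish the lagging strand, CAF-1 and UHRF1 restore nucleosomes and DNA methylation behind the fork, and Claspin, Tipin and Timeless keep the fork intact. Many of these genes are transcribed in late G1 by E2F factors. Torin1 is an ATP-competitive inhibitor of the mTOR kinase, which couples growth signals to protein synthesis and cell cycle entry.

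The genes described here are 40 members of this machinery, named by symbol as a list, out of 21528 genes tested. Each was read from 1 array probe per gene, the probe with the highest mean signal. All 40 had such a probe, all 40 passed the filter on dim probes, and all 40 were well above background on all 8 arrays. The cells were J774.1, a macrophage-like line from BALB/c mice, grown in 4 groups of 2 biological replicates. One group was the control, for which the labels name neither a vehicle nor a time. The other groups received 10 µM isorhamnetin, 10 µM tamarixetin or 1 µM Torin1 for 6 h. Isorhamnetin and tamarixetin are methylated flavonols derived from quercetin that differ only in which hydroxyl group of the same ring carries the methyl group. Levels are log2 processed signals minus each array's 75th percentile, a difference is between group means of 2 arrays each, and a gene was called at a limma adjusted p below 0.05 over all 21528 genes. The replicates were stated to be biological, but with 2 per group the precision is limited by the number of arrays.

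Replicate arrays correlated at r = 0.992 to 0.997 over all genes, and across the 40 genes the SD of the difference between replicates was 0.09 to 0.10 in each group. The 75th percentile of the signal ran from 318 to 403 over the 8 arrays, and 43.9% to 54.1% of probes were well above background. All 8 arrays lay on 1 slide, with control and isorhamnetin in row 1 and tamarixetin and Torin1 in row 2, so position on the slide and group cannot be told apart across rows. Of 10 macrophage markers, 9 were well above background on all 8 arrays and Mertk on none. Among markers of other cell types, Cd3e and Cd4 of 5 T cell genes were well above background on all 8 arrays, against 0 of 5 B cell, 0 of 5 fibroblast and 0 of 4 epithelial genes. On the linear scale, relative to the 75th percentile, the summed macrophage markers were 720 to 733 in control and 738 to 749 under Torin1, and the summed T cell markers 5.19 to 5.65 and 3.14 to 3.52. Single macrophage markers moved both ways under Torin1: of the 9 tested, 4 were called higher and 2 lower, with log2 differences from -2.23 to 1.43. Their part in the results below was not tested.

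Torin1 was set against control to see how the replication genes stood under mTOR inhibition. Of the 40 genes, 35 fell and 2 rose, while Mcm6, Mcm7 and Pola2 did not pass the test. Over all genes tested, 30.1% were called lower and 19.3% higher in the same comparison. When only the 16984 genes well above background on all 8 arrays were fitted, 38% were called lower and 21.7% higher. The median difference over the 40 genes was -0.52, against -0.10 over all genes. The falls were moderate in size. The largest, that of Cdc6, was 2.23-fold, that of Clspn was 2.08-fold, and the other genes that fell did so by 1.14-fold to 1.79-fold. Cdt1 rose 1.64-fold and Gins4 1.18-fold. In bulk RNA, fewer cells in the phase that expresses these genes and less RNA per cell cannot be told apart.

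The Torin1 arrays also stood apart from both flavonol groups. Both Torin1 arrays lay below all 6 other arrays for 36 of the 40 genes, a pattern that 33.5% of all genes showed. Both lay above the 6 others for 2 genes, Cdt1 and Gins4, against 22.4% of all genes. Only Mcm6 and Pola2 had Torin1 values inside the range of the other arrays. Centring each array on its median in place of its 75th percentile moved the median difference of all genes by -0.19, to -0.28, with 41.5% called lower and 11.7% higher. The difference of the median of the 40 genes from that of all genes was -0.42, which a constant per array cannot change, and it was -0.31 under quantile normalization.

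**Figure D1:**
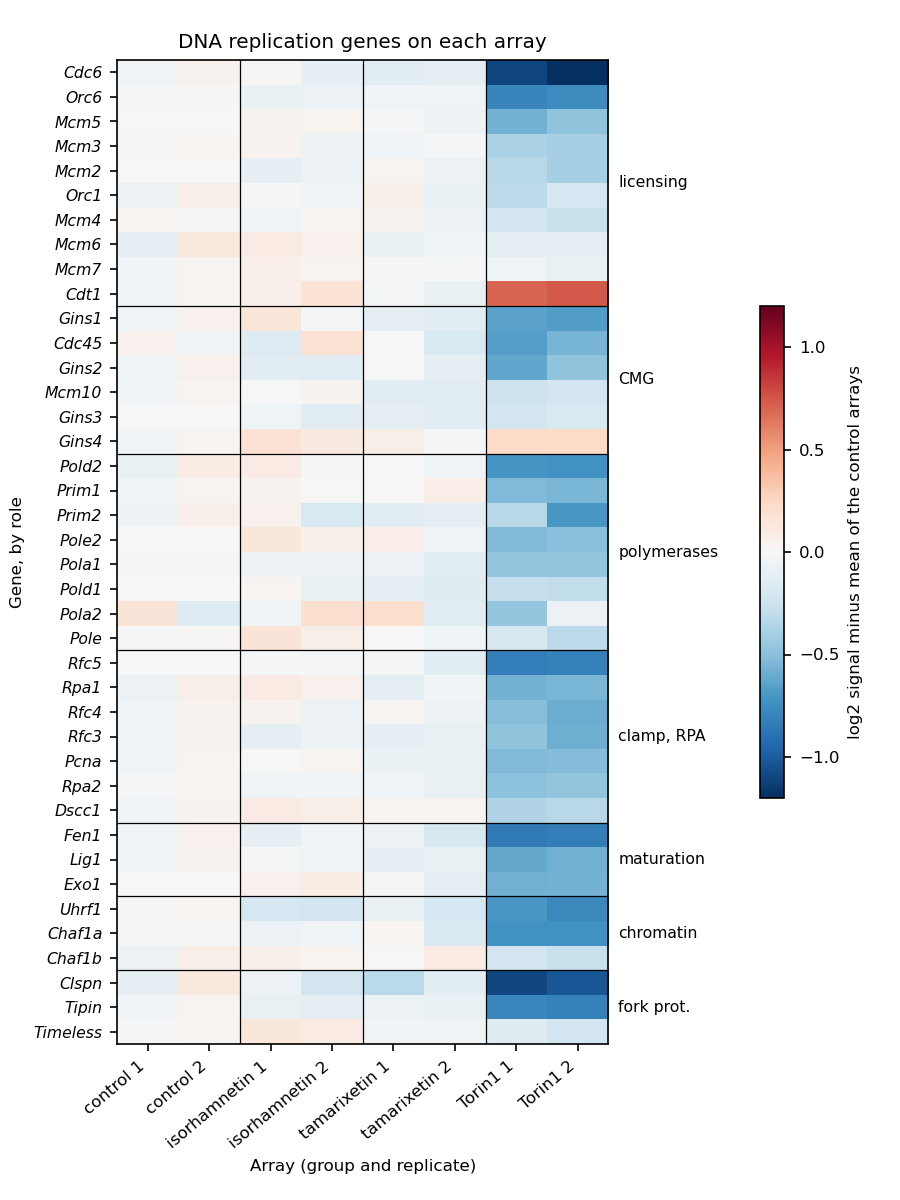
Each row is 1 of the 40 genes, grouped by role, and each column 1 array; colour gives the log2 signal minus the mean of the 2 control arrays of that gene. The Torin1 columns are blue or pale blue for all rows but Cdt1 and Gins4, down to the 2.23-fold fall of Cdc6, while the 4 flavonol columns stay close to the control colour.

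Promoter sequence was looked at to describe the listed genes. Many of them are transcribed by E2F factors, so the share with a motif describes the list and not the response to Torin1. RefSeq windows on GRCm38.p6, from 250 bases before to 50 after the start site, were given for 31 of the 40 genes by symbol. The E2F motif was searched on both strands as TTTCCCGC, TTTCGCGC, TTTGCCGC or TTTGGCGC, whose forms can overlap each other on opposite strands. It was found for 15 of the 31 genes (48.4%), against 2.6% of 27025 genes with such a window, 2.26% of 32851 windows, and 4.58% of the 10346 tested genes that had one. The CCAAT box (CCAAT) was present for 20 of 31 genes (64.5%) against 41.1% of all genes and 43.2% of the tested ones, and the CHR element (TTTGAA), a motif of G2/M genes, for 5 of 31 (16.1%) against 20.2% and 15.4%. A CCAAT match can overlap an E2F match, and in Mcm7 one of each shared base 24 after the start site. The sequences below span the range of Torin1 responses and were chosen after those values were seen. Cdc6 had the largest fall, Mcm5 and Pola1 fell by middling amounts, and Mcm6, whose window held 3 matches, was not called. Clspn had the second largest fall, and Cdt1 rose. The bases before the start site are shown for Cdc6 (chr11:98907901-98908150, plus strand), Mcm5 (chr8:75109259-75109508, plus strand), Mcm6 (chr1:128359706-128359955, minus strand) and Pola1 (chrX:93632156-93632405, minus strand). For Clspn (chr4:126556990-126557019, plus strand) and Cdt1 (chr8:122568035-122568064, plus strand), 30 bases after the start site hold the match. All are written 5′ to 3′ on the strand of the gene, with E2F matches in capitals.
Cdc6: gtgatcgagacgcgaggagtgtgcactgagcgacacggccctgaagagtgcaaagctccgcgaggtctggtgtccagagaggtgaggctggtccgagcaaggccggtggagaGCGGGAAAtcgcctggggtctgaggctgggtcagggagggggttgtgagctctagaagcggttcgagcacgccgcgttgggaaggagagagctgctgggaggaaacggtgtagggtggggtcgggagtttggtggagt
Mcm5: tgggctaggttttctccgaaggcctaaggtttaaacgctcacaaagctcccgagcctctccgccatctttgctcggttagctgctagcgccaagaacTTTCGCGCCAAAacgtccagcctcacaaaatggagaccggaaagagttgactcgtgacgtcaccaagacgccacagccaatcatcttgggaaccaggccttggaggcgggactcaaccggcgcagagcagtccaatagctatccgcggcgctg
Mcm6: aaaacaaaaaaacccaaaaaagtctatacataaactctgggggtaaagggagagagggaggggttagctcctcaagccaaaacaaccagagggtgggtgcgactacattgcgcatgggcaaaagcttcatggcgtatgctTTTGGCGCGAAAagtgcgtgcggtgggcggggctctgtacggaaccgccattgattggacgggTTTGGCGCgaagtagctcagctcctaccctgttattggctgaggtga
Pola1: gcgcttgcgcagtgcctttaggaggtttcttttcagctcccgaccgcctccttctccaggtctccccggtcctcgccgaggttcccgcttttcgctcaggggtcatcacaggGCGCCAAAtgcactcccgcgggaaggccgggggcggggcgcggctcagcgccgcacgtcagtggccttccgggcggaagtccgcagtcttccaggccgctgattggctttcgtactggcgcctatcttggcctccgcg
Clspn: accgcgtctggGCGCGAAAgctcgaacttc
Cdt1: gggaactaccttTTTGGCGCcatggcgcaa

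The single match of Cdc6 ran from position -138 to -131 relative to the start site, on the other strand, and that of Pola1 covered the same positions. Mcm5 had an overlapping pair between -153 and -142. Mcm6 had an overlapping pair between -110 and -99 and a further match from -47 to -40. The match of Clspn lay at 22 to 29 and that of Cdt1 at 33 to 40, both after the start site. Whether a match goes with the size of the change was not tested. The median Torin1 difference was -0.47 for the 15 genes with a match and -0.55 for the 16 without. Of the 27 genes with a window that were called lower, 12 had a match. Of the 4 not called lower, 3 had one: Mcm6 and Mcm7, which were not called in either direction, and Cdt1, which rose. A match describes the letters in the window and does not show that a factor binds there, nor does its absence show that none does.

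**Figure D2:**
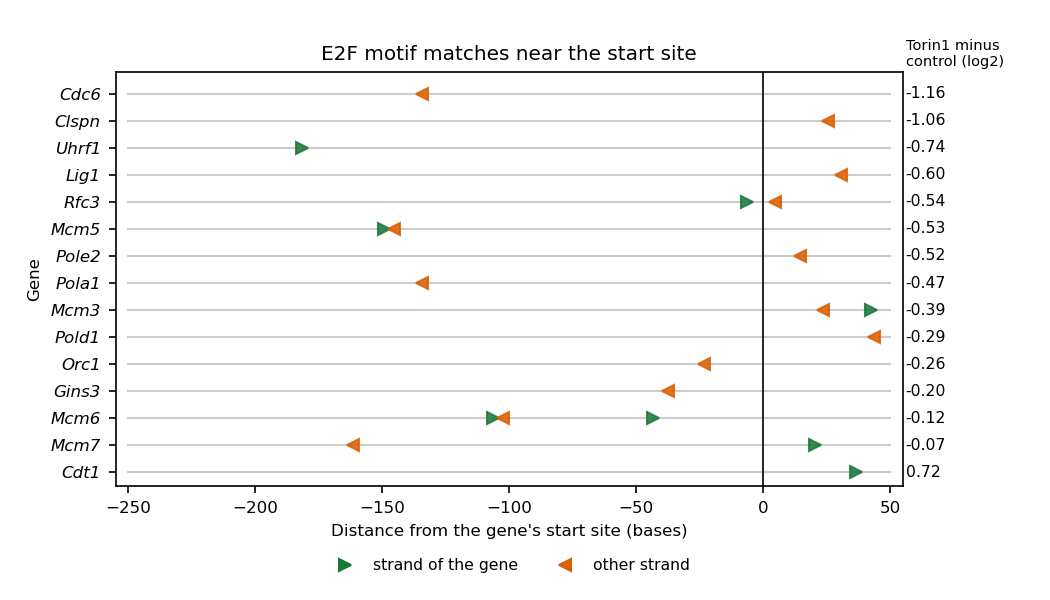
Positions of E2F motif matches in the windows of the 15 genes that had one, in bases from the start site, with genes ordered by their Torin1 minus control log2 difference at the right. Matches lie on both sides of the start site, and the genes run from Cdc6 at -1.16 to Cdt1 at 0.72.

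Licensing genes gave both the largest fall and the largest rise. Of the 10, 7 fell and 1 rose, with a median of -0.32. CDC6, the ATPase that brings the helicase to the origin, showed this most clearly. Cdc6 read 2.97 and 3.06 in control, 3.03 and 2.91 under isorhamnetin, 2.89 and 2.90 under tamarixetin, and 1.91 and 1.81 under Torin1. Its difference between Torin1 and control was -1.16 ± 0.07 (SE, adjusted p = 0.000222), and no Torin1 array came within the range of the other 6. CDT1, the partner of CDC6 in helicase loading, whose protein is destroyed once S phase begins, went the other way. Cdt1 read 6.05 and 6.12 in control, 6.15 and 6.24 under isorhamnetin, 6.07 and 6.0 under tamarixetin, and 6.78 and 6.82 under Torin1, so that both Torin1 arrays were above all others, a difference of 0.72 ± 0.06 (SE, adjusted p = 0.000642). The single probe of Cdt1 lay among the first or last 48 lines of spots on the array, so its call could not be repeated without them. These opposite changes of the licensing partners each passed the test. Their matches to the E2F motif are in the sequences above.

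The origin recognition complex was represented by its ATPase subunit ORC1 and by ORC6. Orc6 read 5.0 and 5.03 in control, 4.94 and 4.94 under isorhamnetin, 4.98 and 4.96 under tamarixetin, and 4.22 and 4.26 under Torin1, a difference of -0.77 ± 0.05 (SE, adjusted p = 0.000241), with the Torin1 arrays well apart from the rest. Orc1 read 2.20 and 2.35 in control, 2.27 and 2.24 under isorhamnetin, 2.35 and 2.19 under tamarixetin, and 1.96 and 2.06 under Torin1, with a smaller difference of -0.26 ± 0.08 (SE, adjusted p = 0.045) that lay close to the threshold.

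The 6 subunits of the MCM2-7 ring act in equal numbers in the loaded helicase. Differences between subunits were not tested, and the values depend on the probe. Mcm5 read 5.14 and 5.13 in control, 5.18 and 5.16 under isorhamnetin, 5.13 and 5.08 under tamarixetin, and 4.56 and 4.65 under Torin1, a difference of -0.53 ± 0.06 (SE, adjusted p = 0.00108). Mcm3 read 6.93 and 6.98 in control, 7.0 and 6.89 under isorhamnetin, 6.90 and 6.94 under tamarixetin, and 6.58 and 6.55 under Torin1, a difference of -0.39 ± 0.06 (SE, adjusted p = 0.00365). Mcm2 read 3.99 and 3.99 in control, 3.90 and 3.93 under isorhamnetin, 4.03 and 3.92 under tamarixetin, and 3.66 and 3.60 under Torin1, a difference of -0.37 ± 0.06 (SE, adjusted p = 0.00462). In these 3 genes the Torin1 arrays were below all others by more than the spread of any group. Mcm4 read 6.24 and 6.20 in control, 6.17 and 6.26 under isorhamnetin, 6.26 and 6.15 under tamarixetin, and 5.99 and 5.96 under Torin1, a difference of -0.25 ± 0.06 (SE, adjusted p = 0.0224), which was smaller but still without overlap. Mcm6 read 6.99 and 7.22 in control, 7.21 and 7.16 under isorhamnetin, 7.02 and 7.06 under tamarixetin, and 6.99 and 7.0 under Torin1, and its difference of -0.12 ± 0.08 (SE, adjusted p = 0.3) did not pass the test. Control replicate 1 of Mcm6 read as low as the Torin1 arrays. Mcm7 read 5.21 and 5.27 in control, 5.30 and 5.27 under isorhamnetin, 5.25 and 5.21 under tamarixetin, and 5.18 and 5.15 under Torin1, a difference of -0.07 ± 0.05 (SE, adjusted p = 0.308), where the Torin1 arrays were lowest by a narrow margin. For these last 2 genes the choice of probe and scaling mattered. The other probe of Mcm7 gave -0.60, called at an adjusted p of 0.0426, and that of Mcm6 gave -0.40 with an adjusted p of 0.169. Under quantile normalization Mcm7 turned to 0.16 with an adjusted p of 0.0224, and Mcm6 to 0.05. The direction of Mcm7 is therefore not settled by these arrays.

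Helicase activation genes fell in 5 of 6 cases, with a median of -0.40 and 1 rise. CDC45 and the 4 GINS subunits complete the CMG helicase, and MCM10 helps to fire it. Gins1 read 3.90 and 4.01 in control, 4.10 and 3.94 under isorhamnetin, 3.84 and 3.83 under tamarixetin, and 3.32 and 3.28 under Torin1, a difference of -0.66 ± 0.07 (SE, adjusted p = 0.00138). Cdc45 read 1.25 and 1.14 in control, 1.04 and 1.36 under isorhamnetin, 1.19 and 1.01 under tamarixetin, and 0.53 and 0.63 under Torin1, a difference of -0.61 ± 0.13 (SE, adjusted p = 0.0111), with a wider spread within isorhamnetin than in the other groups. For both genes the Torin1 arrays were the lowest of the 8. Gins2 differed by -0.56 ± 0.08 (SE, adjusted p = 0.00261), Mcm10 by -0.24 ± 0.05 (SE, adjusted p = 0.0119) and Gins3 by -0.20 ± 0.05 (SE, adjusted p = 0.0242). Gins4 was the exception, with 3.29 and 3.35 in control, 3.50 and 3.43 under isorhamnetin, 3.39 and 3.29 under tamarixetin, and 3.55 and 3.56 under Torin1, and its difference was 0.24 ± 0.06 (SE, adjusted p = 0.0212). The 4 subunits of this complex therefore ran from a fall of 0.66 to a rise of 0.24. The rise of Gins4 was small and its second probe, at 0.11, was not called (adjusted p 0.218).

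Primase and polymerase genes fell in 7 of 8 cases, with a median of -0.49. Pold2, the accessory subunit of polymerase delta, read 4.63 and 4.81 in control, 4.82 and 4.69 under isorhamnetin, 4.72 and 4.67 under tamarixetin, and 4.01 and 4.0 under Torin1, a difference of -0.72 ± 0.08 (SE, adjusted p = 0.0014). Prim1, the catalytic primase subunit, read 4.49 and 4.56 in control, 4.57 and 4.52 under isorhamnetin, 4.52 and 4.60 under tamarixetin, and 4.0 and 3.98 under Torin1, a difference of -0.54 ± 0.06 (SE, adjusted p = 0.0012). In both, the Torin1 arrays agreed closely with each other and lay below the other 6. Pole, the catalytic subunit of the leading-strand polymerase, read 3.42 and 3.45 in control, 3.58 and 3.50 under isorhamnetin, 3.42 and 3.38 under tamarixetin, and 3.24 and 3.11 under Torin1, and its difference of -0.26 ± 0.07 (SE, adjusted p = 0.0232) was among the smaller ones of the group. Its partner Pole2 differed by -0.52 ± 0.07 (SE, adjusted p = 0.00194), and Pola1, the catalytic subunit of polymerase alpha, by -0.47 ± 0.05 (SE, adjusted p = 0.00121). Pold1, the catalytic subunit of polymerase delta, differed by -0.29 ± 0.06 (SE, adjusted p = 0.0116), less than its partner Pold2, a contrast that was not tested. Prim2, the large primase subunit, differed by -0.52 ± 0.14 (SE, adjusted p = 0.0292) with its Torin1 arrays at -0.04 and -0.41. Pola2 was not called, at -0.27 ± 0.20 (SE, adjusted p = 0.309), with its Torin1 arrays at -1.58 and -1.19.

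The clamp, clamp loader and single-strand binding genes fell in 7 of 7 cases, with a median of -0.54. Pcna, the sliding clamp that holds polymerases on DNA, read 7.28 and 7.35 in control, 7.32 and 7.35 under isorhamnetin, 7.24 and 7.23 under tamarixetin, and 6.79 and 6.79 under Torin1, a difference of -0.53 ± 0.05 (SE, adjusted p = 0.000833). Rfc5, a clamp loader subunit, read 5.77 and 5.76 in control, 5.74 and 5.74 under isorhamnetin, 5.75 and 5.63 under tamarixetin, and 4.93 and 4.95 under Torin1, a difference of -0.82 ± 0.06 (SE, adjusted p = 0.000344), the largest of this group. Both genes had Torin1 arrays close to each other and below the 6 others. The loader subunits Rfc4 and Rfc3 differed by -0.55 ± 0.07 (SE, adjusted p = 0.00221) and -0.54 ± 0.06 (SE, adjusted p = 0.00157). The RPA subunits Rpa1 and Rpa2 differed by -0.56 ± 0.07 (SE, adjusted p = 0.00188) and -0.48 ± 0.05 (SE, adjusted p = 0.0011). Dscc1, part of an alternative loader that acts with sister chromatid cohesion, differed least, by -0.35 ± 0.05 (SE, adjusted p = 0.00371).

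Okazaki fragment maturation and resection genes fell in 3 of 3 cases. Fen1, the flap endonuclease that trims lagging strand fragments, read 6.74 and 6.84 in control, 6.69 and 6.76 under isorhamnetin, 6.72 and 6.60 under tamarixetin, and 5.94 and 5.96 under Torin1, a difference of -0.84 ± 0.07 (SE, adjusted p = 0.000509). Exo1, an exonuclease that resects DNA ends and acts in mismatch repair, read 4.04 and 4.03 in control, 4.09 and 4.12 under isorhamnetin, 4.04 and 3.92 under tamarixetin, and 3.46 and 3.47 under Torin1, a difference of -0.57 ± 0.06 (SE, adjusted p = 0.00107). The Torin1 arrays were again the lowest 2 of 8. Lig1, the ligase that seals the fragments, differed by -0.60 ± 0.05 (SE, adjusted p = 0.000675).

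Genes that rebuild chromatin behind the fork fell in 3 of 3 cases. Chaf1a, the large subunit of the histone chaperone CAF-1, read 3.58 and 3.56 in control, 3.50 and 3.53 under isorhamnetin, 3.59 and 3.40 under tamarixetin, and 2.84 and 2.85 under Torin1, a difference of -0.72 ± 0.07 (SE, adjusted p = 0.000996). Its partner Chaf1b differed by -0.25 ± 0.07 (SE, adjusted p = 0.0262). Uhrf1, which brings the maintenance methyltransferase to newly copied DNA, read 5.54 and 5.58 in control, 5.36 and 5.33 under isorhamnetin, 5.48 and 5.34 under tamarixetin, and 4.86 and 4.78 under Torin1, a difference of -0.74 ± 0.07 (SE, adjusted p = 0.000691). For Uhrf1 the isorhamnetin and the tamarixetin arrays were also all below both controls. It alone of the 40 had an unadjusted p below 0.05 between isorhamnetin and control (adjusted p 0.231), against 3307 of all 21528 genes. Its second probe differed from control by -0.38 under isorhamnetin and by -0.48 under tamarixetin, and neither was called.

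Fork protection genes fell in 3 of 3 cases, over a wide range. Clspn, which encodes Claspin, the adaptor that passes the checkpoint signal to CHK1, read 0.55 and 0.78 in control, 0.60 and 0.45 under isorhamnetin, 0.34 and 0.54 under tamarixetin, and -0.43 and -0.36 under Torin1. Its difference was -1.06 ± 0.11 (SE, adjusted p = 0.0011), about as large as that of Cdc6. Tipin read 6.64 and 6.70 in control, 6.59 and 6.55 under isorhamnetin, 6.61 and 6.59 under tamarixetin, and 5.89 and 5.86 under Torin1, a difference of -0.80 ± 0.05 (SE, adjusted p = 0.00026), with little spread within any group. Timeless, whose protein binds that of Tipin, differed by only -0.19 ± 0.06 (SE, adjusted p = 0.0354). Its second probe gave -0.52.

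**Figure D3:**
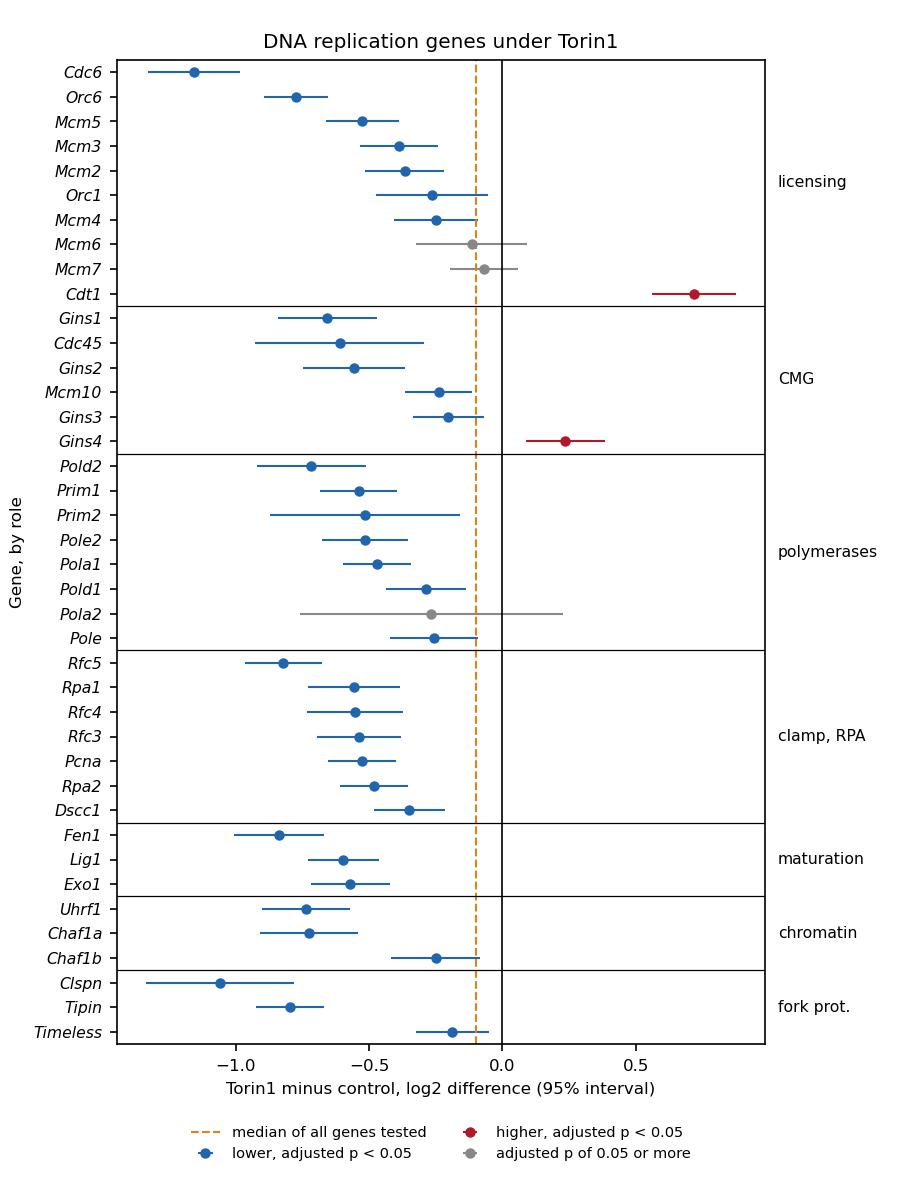
Torin1 minus control log2 difference of each of the 40 genes with its 95% interval, grouped by role; the dashed line is the median of all genes tested. Of the genes, 35 lie to the left of 0 with an adjusted p below 0.05, Cdt1 and Gins4 lie to the right, and Mcm6, Mcm7 and Pola2 have intervals that reach 0.

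More than 1 probe passed the filter for 16 of the 40 genes, and in all 16 the probes had the same sign between Torin1 and control. Of the 37 calls, 26 held in every alternative processing that could test them, 25 falls and the rise of Cdt1, and 11 were lost in at least 1. Quantile normalization lost the calls of Chaf1b, Gins3, Mcm10, Mcm4, Orc1, Pold1, Pole and Timeless, whose differences were then -0.15 to -0.01 (adjusted p 0.0532 to 0.908). Leaving out control replicate 1 lost the calls of Cdc45, Gins3, Gins4, Mcm4, Pold1, Pole, Prim2 and Timeless (adjusted p 0.053 to 0.0936). Leaving out control replicate 2 lost Chaf1b, Gins3, Gins4, Mcm10, Mcm4, Orc1, Pold1, Pole, Prim2 and Timeless (0.0502 to 0.193). Leaving out Torin1 replicate 1 lost Cdc45, Chaf1b, Gins3, Gins4, Mcm10, Mcm4, Orc1, Pold1 and Timeless (0.052 to 0.187). Leaving out Torin1 replicate 2 lost Chaf1b, Gins3, Gins4, Mcm10, Mcm4, Orc1, Pold1, Pole, Prim2 and Timeless (0.0551 to 0.17). Without either isorhamnetin array Orc1 and Timeless were lost (0.0544 and 0.073), and without either tamarixetin array Timeless (0.0523). These were the genes with differences of 0.29 or less, besides Cdc45 and Prim2, whose replicates spread more widely.

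The flavonols, matched to each other in dose and time, were set against control, for which the labels name no time. No member was called under either compound. Isorhamnetin gave 0 higher and 0 lower of 40 by limma, where 0.418% of all genes were called higher and 0.125% lower. An unadjusted p below 0.05 was found for 1 of the 40 genes, against 3307 of all 21528 genes. The median difference over the 40 genes was -0.01, and single differences ran from -0.21 (Uhrf1) to 0.14 (Gins4). Both isorhamnetin arrays were below both controls for 11 genes and above them for 9, against 24% and 25.7% of all genes. Tamarixetin gave 0 higher and 0 lower by limma, where 0.0697% and 0.00929% of all genes were called. An unadjusted p below 0.05 was found for 1 of the 40 genes (Mcm10), against 3072 of all 21528 genes. The tamarixetin median over the 40 genes was -0.06, and differences ran from -0.23 (Clspn) to 0.05 (Chaf1b). Both tamarixetin arrays were below both controls for 19 genes and above them for 0, against 33% and 13.9% of all genes. The median difference of all genes in that comparison was -0.05.

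The arrays bound how large a change under a flavonol could have gone unseen. The 95% interval of the difference lay within 0.5 log2 units of 0 for 39 of the 40 genes under isorhamnetin, all but Pola2, and for 38 under tamarixetin, all but Pola2 and Clspn. The estimate itself was within 10% of control for 38 and 39 genes. Cdc6, which fell 2.23-fold under Torin1, differed from control by -0.05 (95% interval -0.22 to 0.13) under isorhamnetin and by -0.12 (95% interval -0.29 to 0.05) under tamarixetin. Clspn differed by -0.14 (95% interval -0.42 to 0.13) and -0.23 (95% interval -0.50 to 0.05). Cdt1 differed by 0.11 (95% interval -0.04 to 0.27) and -0.05 (95% interval -0.20 to 0.11).

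Isorhamnetin and tamarixetin, the single pair of related compounds at a matched dose, were then compared with each other. No gene of the 40 was called in either direction (0 higher and 0 lower by limma). Over all genes, 0.585% and 0.242% were called higher and lower in isorhamnetin. An unadjusted p below 0.05 was found for 4 of the 40 genes, against 2861 of all 21528 genes. The median difference was 0.05, beside 0.05 over all genes. Isorhamnetin arrays were both above both tamarixetin arrays for 16 genes and below for 3, against 30.6% and 11.8% of all genes. The largest differences were those of Gins1 at 0.19 (95% interval 0.0 to 0.37, adjusted p 0.376) and Cdt1 at 0.16 (0.0 to 0.32, adjusted p 0.366). Timeless at 0.16 (0.02 to 0.30, adjusted p 0.323) and Mcm10 at 0.15 (0.03 to 0.28, adjusted p 0.299) were the other two with an unadjusted p below 0.05. The interval stayed within 0.5 log2 units of 0 for 39 of 40 genes, again all but Pola2. The median half-width of these intervals over the 40 genes was 0.16. With 2 arrays per group, differences between the isomers that lie within a gene's interval were not excluded.

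**Figure D4:**
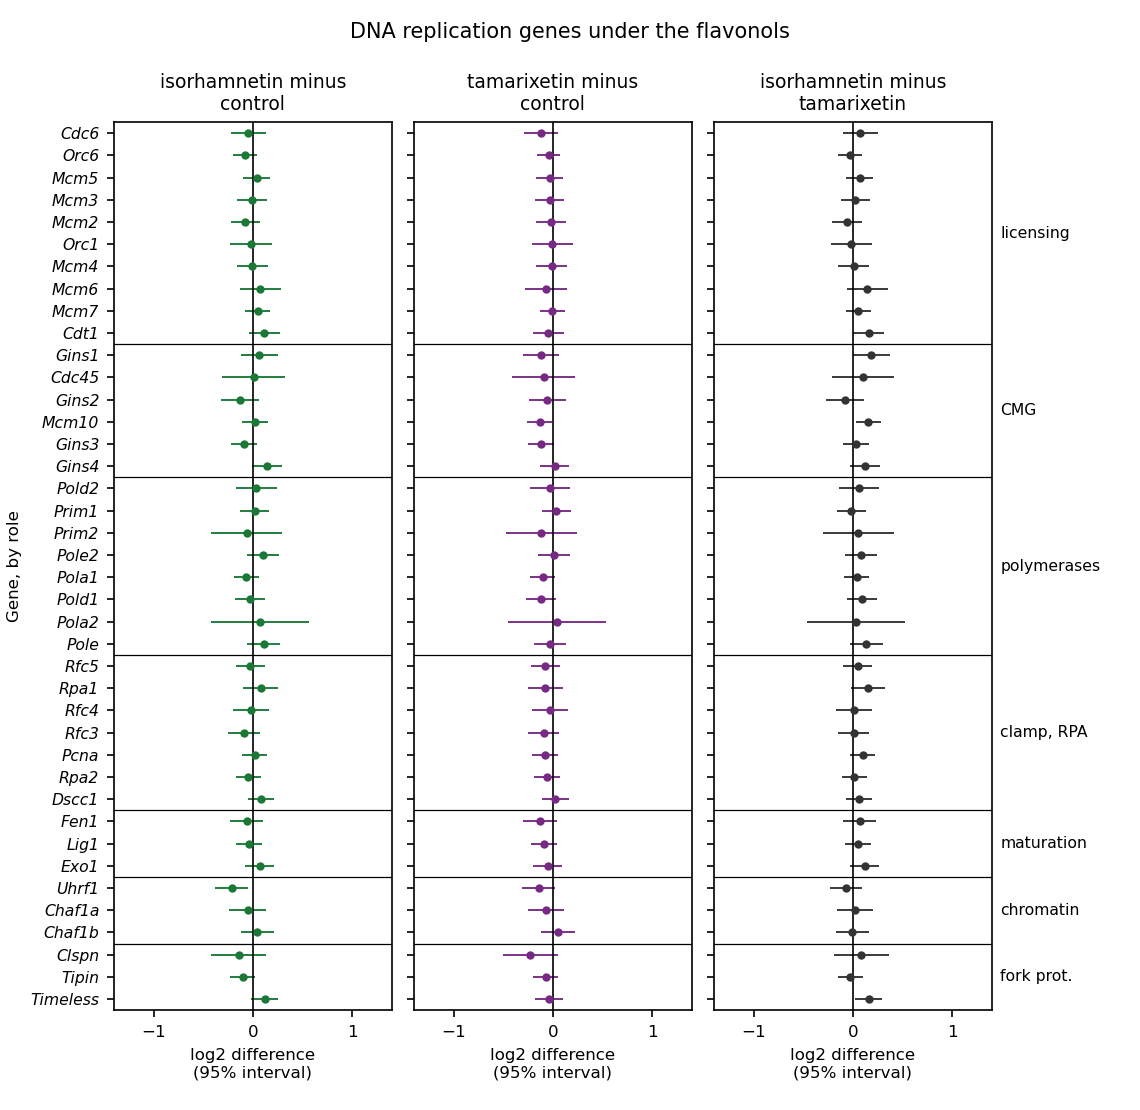
Log2 differences of the 40 genes with 95% intervals for isorhamnetin minus control, tamarixetin minus control and isorhamnetin minus tamarixetin, grouped by role, on 1 axis range. Points lie between -0.23 and 0.19 in all 3 panels, and none was called.

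Each flavonol was also compared with Torin1, at doses that differ (10 µM against 1 µM), so that these values describe the groups and do not rank the compounds. These comparisons share the Torin1 arrays with each other and with the comparison against control. Under isorhamnetin 32 genes were higher than under Torin1 and 1, Cdt1, was lower, where 26.6% and 15.6% of all genes were called. The median difference over the 40 genes was 0.45, against 0.09 over all genes. Under tamarixetin 29 were higher and 2, Cdt1 and Gins4, were lower, where 24.1% and 19.1% of all genes were called. Here the median was 0.45, against 0.03. Cdc6 was higher than under Torin1 by 1.11 ± 0.07 (SE, adjusted p = 0.00027) in isorhamnetin and by 1.04 ± 0.07 (SE, adjusted p = 0.000318) in tamarixetin. For Cdt1 the values were -0.60 ± 0.06 (SE, adjusted p = 0.00126) and -0.77 ± 0.06 (SE, adjusted p = 0.000595). Tamarixetin and Torin1 lay in the same row of the slide, so the 29 calls between them do not involve a difference of rows. Their columns differed, 1 and 2 against 3 and 4, so position within the row and group cannot be told apart. The lower level of Gins4 in tamarixetin than in Torin1 was not called without tamarixetin replicate 2 (-0.17), without Torin1 replicate 1 (-0.22) or replicate 2 (-0.21), or without either control array (-0.22).

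Other genes of the cell cycle stood as follows under Torin1 against control, beside the 30.1% lower and 19.3% higher over all genes. Of 39 other replication genes, 28 fell and 2 rose, with a median of -0.34. The largest were Recql4, an initiation helicase (-0.97 ± 0.06), the histone chaperones Asf1b (-0.92 ± 0.06) and Asf1a (0.74 ± 0.13), and the polymerase epsilon subunit Pole4 (-0.72 ± 0.06). The paralogous pair Asf1a and Asf1b thus changed in opposite directions. Of 12 genes of deoxynucleotide supply, 10 fell and 1 rose, with a median of -0.70. The largest falls were those of thymidine kinase Tk1 (-1.53 ± 0.10), the ribonucleotide reductase subunits Rrm2 (-1.15 ± 0.08) and Rrm1 (-0.81 ± 0.06), and thymidylate synthase Tyms (-0.90 ± 0.06).

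Regulators of this programme also changed. In the E2F and RB family 9 of 13 fell and 2 rose, with a median of -0.50. E2f8 (-1.10 ± 0.08), a repressor, had the largest fall, followed by E2f4 (-0.63 ± 0.07), mainly a repressor, and the activator E2f2 (-0.63 ± 0.07), while Tfdp2 (0.82 ± 0.07), a dimer partner, rose. Of 14 tested G1/S cyclins, CDKs and inhibitors, 11 fell and 1 rose, with a median of -0.77. Cdkn1a (-2.23 ± 0.06) fell most although its protein, p21, inhibits CDKs, and the D-type cyclins Ccnd2 (-2.07 ± 0.09) and Ccnd3 (-1.61 ± 0.05) followed. Ccne2 was also called lower, but it was well above background on only 4 of 8 arrays and no fold is given. Among 25 mitosis genes, 21 fell and 0 rose, with a median of -0.49. Of these 25, 22 had an unadjusted p below 0.05, against 12208 of all 21528 genes. The mitotic kinases Aurkb (-0.90 ± 0.11), Aurka (-0.79 ± 0.09) and Cdk1 (-0.70 ± 0.05) and the topoisomerase Top2a (-0.66 ± 0.05) had the largest falls. Of 15 replication stress and checkpoint genes, 7 fell and 2 rose, with a median of -0.24. Among these, Fanci (-0.43 ± 0.06) and the helicase Blm (-0.40 ± 0.05) fell, and the clamp subunit Rad9a (0.67 ± 0.07) rose.

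The replication fork genes stood between these lists by their median. Differences between lists were not tested. Under the flavonols none of the 6 other lists had a member called against control by limma, with 0 to 5 members of a list at an unadjusted p below 0.05. Over all 21528 genes, 3307 had an unadjusted p below 0.05 under isorhamnetin and 3072 under tamarixetin. Against Torin1, 30 of the 39 other replication genes were called higher and 1 lower in isorhamnetin, and 28 higher and 3 lower in tamarixetin. Of the 25 mitosis genes, 21 and 20 were called higher and 0 lower. Over all genes, 26.6% and 24.1% were called higher in these comparisons, and 15.6% and 19.1% lower. No list was chosen independently of these arrays' earlier results, so the counts describe them and do not test a pathway.

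**Figure D5:**
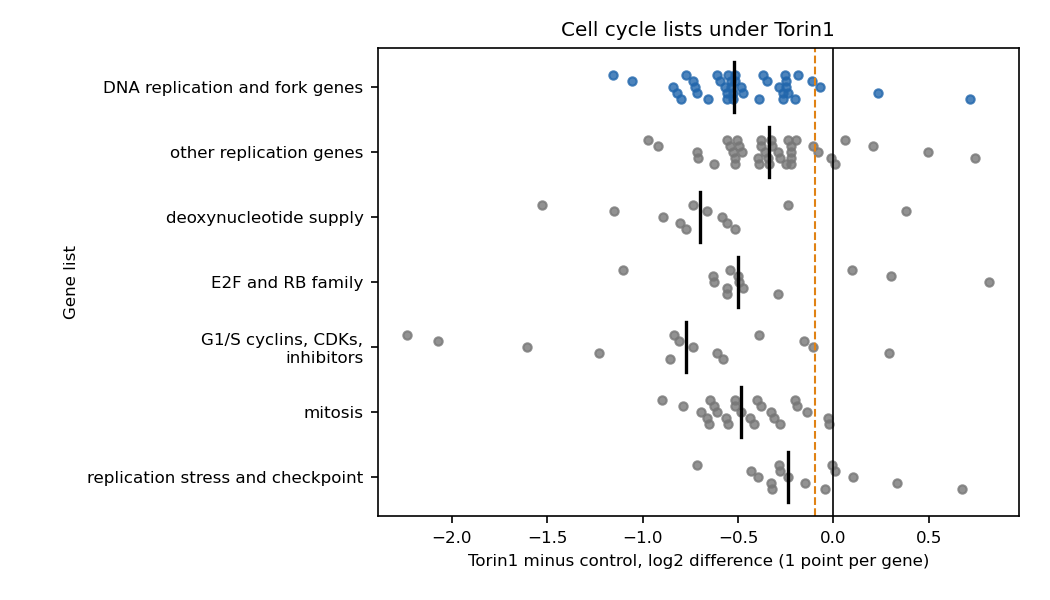
Torin1 minus control log2 difference of each gene in the 40 replication and fork genes and in 6 other lists; each point is 1 gene, black bars are list medians, and the dashed line is the median of all genes tested. The bars run from -0.24 for replication stress and checkpoint genes to -0.77 for G1/S cyclins, CDKs and inhibitors, and the replication fork genes lie at -0.52.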

How the data were processed

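Total RNA of 8 J774.1 samples was hybridised to 1-colour Agilent arrays (Cy3). Per the file headers, the deposited processed signal is an intensity from Agilent Feature Extraction 10.7.1.1, background-subtracted within each array and not scaled between arrays. The authors also deposited a log2 value table. Log2 signal minus the array's 75th percentile over 56605 probes and minus each probe's median gave its values within 0.01 for 99.84% of probes on all arrays, so its scale, centring and direction were recovered. The same percentile scaling was used here.

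Spots marked as outliers by the scanner software were dropped (323 probes lost), replicate spots were averaged, and 27562 probes were kept, each of which the scanner software called well above background on the 2 arrays of some group. Symbols came from RefSeq accessions (GRCm38.p6) for 32994 probes. The probe with the highest mean stood for a gene, which gave 21528 genes, 12937 with a symbol.

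All 8 arrays entered 1 limma 3.58.1 fit (R 4.3.3) with a mean per group and 4 residual degrees of freedom. P values are two-sided and Benjamini-Hochberg adjusted over 21528 genes in each of 6 comparisons. The procedure was tested on simulated arrays with independent noise in each gene. These had no slide position and no shared deviations, so they give no error rate for the real arrays. An exact permutation test of 2 arrays against 2 cannot go below p = 0.333 and was not used. No column was left unmatched. Figures were drawn with matplotlib.

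Values on every array are given for a panel of 16 genes and for up to 10 of the largest calls in each direction of a comparison, and other genes by their difference. Of each other list, up to 4 of the largest calls per comparison are named, and some genes of these lists are not reported here by name. The 40 genes and all lists were chosen with earlier results of these data known. Same-numbered arrays share only a number in the labels, so replicates were not paired. Alternatives in scaling, background, filter, probe, covariate and arrays are given in the closing section.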

Additional observations from a re-analysis of the deposited data

How the results depend on the processing

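The 75th percentile over spots, the crossed pairing and the use of a gene's other probe were chosen after seeing the data. Between each flavonol and control and between the flavonols, limma called 0 members in every setting that was run. Among the 16984 genes well above background on all 8 arrays, isorhamnetin against control called 1.63% higher and 0.589% lower. Tamarixetin against control called 0 of these genes. Against Torin1, isorhamnetin called 33.8% higher and 18.5% lower, and tamarixetin 31.4% and 21.3%. The number of members lower under Torin1 than in control ranged from 26 to 36, and 26 of 37 calls held in every setting that could test them. The 2 calls higher became 3 under quantile normalization, with Mcm7 added. They became 1, with Gins4 lost, under median scaling, with no filter on dim probes, with the mean over probes and with the other probe. Without the first and last 48 of the 384 lines of spots, 34 members were left and 0 were higher. These lines hold the single probe of Cdt1 and the probe used for Gins4. Gins4 was then read from its second probe, at 0.11 (adjusted p 0.217), so neither rise was tested again with its own probe.

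The median over members between Torin1 and control was -0.71 under median scaling, -0.37 under quantile normalization and -0.48 with the percentile over spots. Under the same 3 settings isorhamnetin against Torin1 gave 0.58, 0.35 and 0.41, and tamarixetin against Torin1 0.56, 0.34 and 0.42. For isorhamnetin against Torin1 it was also 0.41 with normexp and 0.53 with the other probe. Against control, the isorhamnetin median was -0.0645 under median scaling, 0.0290 under quantile normalization and 0.0172 with normexp. The median of all genes was then -0.0617, 0.003 and -0.011. The tamarixetin median was -0.133, -0.0122 and -0.0364 under the same 3 settings, and that of all genes -0.123, -0.0251 and -0.026. Lower calls in isorhamnetin against Torin1 numbered 2 under quantile normalization and 0 without these lines. Those in tamarixetin against Torin1 numbered 1 under median scaling, with no filter, with only the 2 groups compared, with the replicate block and without these lines. Mcm7 reversed under quantile normalization, to 0.16 against control (adjusted p 0.0224) and, for tamarixetin against Torin1, to -0.13 (0.0493). The cause was not tested. Without any filter, 45380 genes were tested and the median of all genes between Torin1 and control was 0.33.

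Leaving out each array in turn gave 1 to 2 members higher and medians of -0.54 to -0.49 for Torin1 against control, and medians of -0.0280 to 0.00790 for isorhamnetin and -0.0836 to -0.0231 for tamarixetin against control. Against Torin1 it gave medians of 0.45 to 0.51 for isorhamnetin, and of 0.44 to 0.47 with 1 to 2 members lower for tamarixetin. Gins4 was the call lost, without either control array or either Torin1 array. A lone array was assumed to vary like the other groups. Of the calls against Torin1, those of 6 members in isorhamnetin and 8 in tamarixetin were lost in at least 1 setting.

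With the replicate block, 32 members were lower and 2 higher under Torin1 than in control, and same-numbered deviations correlated at -0.13 to 0.08 over all genes and at -0.63 to 0.73 over the 40 members. A crossed block for isorhamnetin against tamarixetin, where the value over all genes was -0.13, called 0 members higher and 0 lower.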
